A study of Mus musculus with 8 samples.

Results

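The 10 enzymes described here, which oligodendrocytes use to make the lipids of myelin, were compared between brains of mice labelled Nsun5-KO and brains of wild-type (WT) mice. The genes are Ugt8a, Gal3st1, Fa2h, Cers2, Elovl1, Elovl5, Elovl7, Scd1, Scd2 and Aspa, chosen by name from a table of 54532 genes, and all 10 were found and passed the filter on low counts. Bulk RNA sequencing was done on 8 libraries, 4 labelled Nsun5-KO and 4 WT, from male mice of 3 months. The labels' protocols describe 5 mice of each genotype from a single litter, anaesthetised with pentobarbital at 50 mg/kg before the brain was taken. The sources used here give neither the targeted allele nor the strain. Nsun5 encodes an enzyme that methylates a cytosine of ribosomal RNA, and the study concerned myelination and sleep after its loss.

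Myelin is a stack of oligodendrocyte membrane unusually rich in galactolipids and in very long chain fatty acids. Its main galactolipid, galactosylceramide, is built on ceramide, and part of it is sulfated to sulfatide. Oligodendrocytes lengthen, desaturate and hydroxylate the fatty acids of these lipids, and they can take acetate for fatty acid synthesis from N-acetylaspartate, which neurons make. Other brain cells also use some of these enzymes, above all the stearoyl-CoA desaturases and Elovl5.

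The libraries held 15642086 to 17829523 counts, and the members had between 142 and 32380 counts in a library. Nsun5 RNA did not separate the groups. It had 102, 124, 83 and 110 counts in replicates 1 to 4 labelled Nsun5-KO, against 91, 82, 103 and 109 counts in WT replicates 1 to 4 (log2 fold change 0.13, 95% interval -0.20 to 0.47, edgeR adjusted p = 0.817). All directions below are therefore those of the libraries labelled Nsun5-KO. Summed neuron markers had 7214 to 7839 CPM (counts scaled to library size) in the libraries labelled Nsun5-KO, against 6184 to 6632 CPM in WT. Of these markers, Snap25, Slc17a7, Rbfox3 and Syt1 had log2 fold changes of 0.19 to 0.37. Tubb3, Stmn2 and Gad1 were at 0.02 to 0.03, and Gad2 was at -0.43. Summed astrocyte markers had 4029 to 4611 CPM in the libraries labelled Nsun5-KO, against 3740 to 4373 CPM in WT. Of the 7 astrocyte markers, 4 lay below 0, and their median log2 fold change was -0.003. The tissue was labelled as brain, but Gabra6, a defining gene of cerebellar granule cells, had at most 1 count in a library labelled Nsun5-KO. It had 0, 30, 2 and 0 counts in WT replicates 1 to 4.

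Of the 10 enzymes, 6 had log2 fold changes of the libraries labelled Nsun5-KO against WT between -0.43 and -0.29: Ugt8a, Gal3st1, Fa2h, Cers2, Elovl7 and Aspa. The other 4, Elovl1, Elovl5, Scd1 and Scd2, lay between -0.13 and -0.02, with 95% intervals that include 0. EdgeR called no member at an adjusted p below 0.05, and it called 0% of the 16062 genes tested. At an unadjusted edgeR p below 0.05, 6 of the 10 members were lower, against 5.05% of all genes tested, and 0 were higher, against 5.3% of all genes. All 10 fold changes were below 0, as were 51.4% of those of all genes. Without replicate 1 labelled Nsun5-KO, or without WT replicate 1, 7 of 10 were below 0, and Elovl5, Scd1 and Scd2 were above it. The CPM values of the groups did not overlap in 5 members, all lower in the libraries labelled Nsun5-KO, against 2.71% of all genes. None was separate and higher, against 2.99% of all genes, and 5.7% of all genes were separate in either direction. The median log2 fold change was -0.31 over the members and -0.01 over all genes tested. The members were chosen with earlier results of these data known, so these counts and this median are no independent evidence. DESeq2, an alternative test, called 2 members, Ugt8a and Elovl7, both lower, where it called 0.303% of genes lower and 0.663% in either direction. Leaving out replicate 1 or 3 labelled Nsun5-KO, or WT replicate 1, 2 or 3, ended both DESeq2 calls, and leaving out replicate 2 or 4 labelled Nsun5-KO or WT replicate 4 ended that of Elovl7. In bulk tissue, fewer oligodendrocytes and less RNA per oligodendrocyte cannot be told apart.

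**Figure D1:**
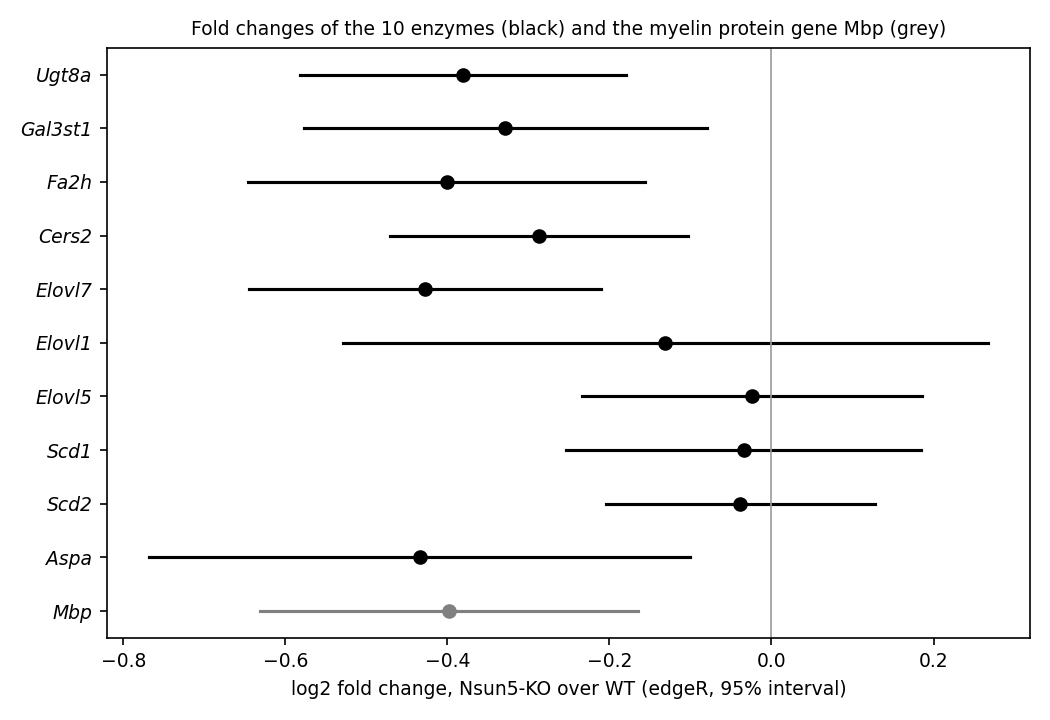
Log2 fold change (x axis), libraries labelled Nsun5-KO against WT, for the 10 enzymes in black and for the myelin protein gene Mbp in grey (y axis), with 95% intervals from edgeR, 4 libraries per group. There are 6 enzymes between -0.43 and -0.29 with intervals below 0, and Elovl1, Elovl5, Scd1 and Scd2 have intervals that include 0.

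The galactolipid enzymes lay lower together. Ugt8a (ENSMUSG00000032854, chromosome 3, 125865271 to 125938619, mm10), the enzyme that adds galactose to ceramide, had 60.3, 78.2, 62.7 and 73.6 CPM in replicates 1 to 4 labelled Nsun5-KO, against 96.7, 90.8, 88.3 and 82.1 CPM in WT replicates 1 to 4. Every library labelled Nsun5-KO was below every WT library, and replicates 1 and 3 were the lowest. The means were 68.7 ± 8.58 and 89.5 ± 6.06 CPM (SD, n = 4 each), a log2 fold change of -0.38 (SE 0.09, 95% interval -0.58 to -0.18, edgeR adjusted p = 0.313). Gal3st1 (ENSMUSG00000049721, chromosome 11, 3983636 to 3999326), which sulfates galactosylceramide to sulfatide, had 9.75, 12.3, 10.6 and 12.03 CPM in libraries labelled Nsun5-KO, against 14.7, 13.0, 13.6 and 14.9 CPM in WT. Its groups did not overlap either, although replicate 2 labelled Nsun5-KO came close to WT replicate 2. The log2 fold change of Gal3st1 was -0.33 (SE 0.11, 95% interval -0.58 to -0.08, edgeR adjusted p = 0.40).

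The balance between these 2 steps of the same pathway overlapped between the groups. The log2 ratio of Gal3st1 to Ugt8a was -2.61 ± 0.04 in the libraries labelled Nsun5-KO and -2.66 ± 0.15 in WT (SD, n = 4 each).

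Enzymes that shape the ceramide's fatty acid showed the same direction. Fa2h (ENSMUSG00000033579, chromosome 8, 111345135 to 111393824), which hydroxylates fatty acids for the hydroxylated galactolipids of myelin, had 32.3, 47.0, 34.1 and 42.0 CPM in libraries labelled Nsun5-KO, against 50.6, 51.2, 48.5 and 55.0 CPM in WT. Replicates 1 and 3 labelled Nsun5-KO stood well below the other libraries, and replicate 2 came within 2 CPM of the lowest WT library. The log2 fold change was -0.40 (SE 0.11, 95% interval -0.65 to -0.16, edgeR adjusted p = 0.316). Cers2 (ENSMUSG00000015714, chromosome 3, 95314791 to 95323599), the ceramide synthase that uses very long chain acyl-CoA, had 41.6, 46.5, 43.8 and 51.1 CPM in libraries labelled Nsun5-KO, against 61.6, 55.5, 53.2 and 53.0 CPM in WT. The groups were separate but adjacent, with replicate 4 labelled Nsun5-KO nearest to WT. The log2 fold change of Cers2 was -0.29 (SE 0.08, 95% interval -0.47 to -0.10, edgeR adjusted p = 0.329). The library kit does not mark strand, and Cers2 shares 75 exon bases with the opposite-strand gene Setdb1 and 144 with 6330562C20Rik, or 2.04% and 3.92% of its exon bases, so reads there cannot be assigned.

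**Figure D2:**
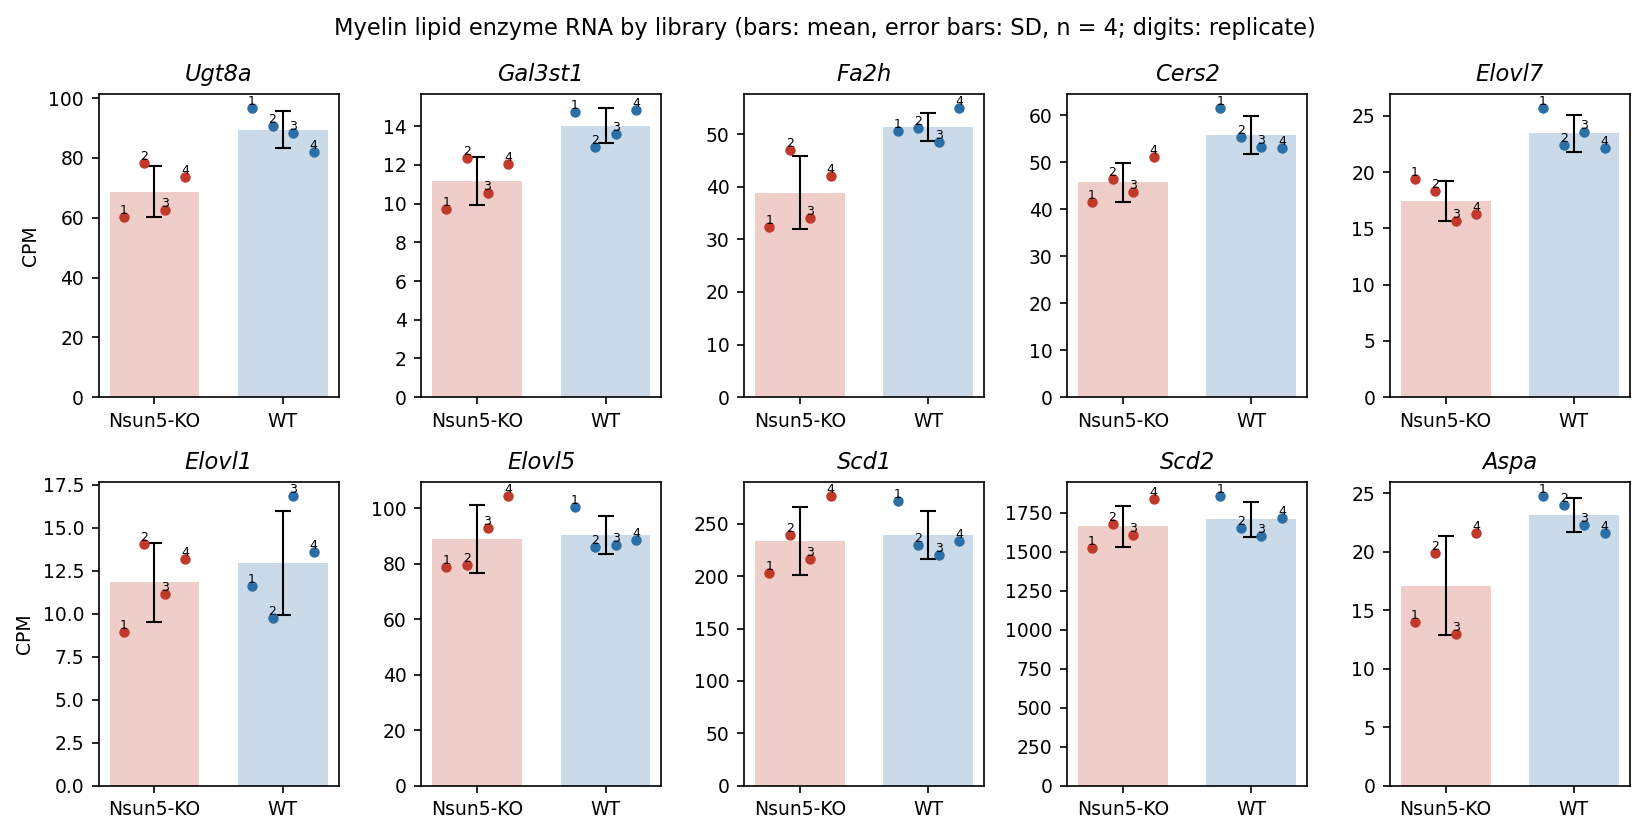
CPM of each enzyme (y axis, starting at 0) in the libraries labelled Nsun5-KO and in WT (x axis). Bars are means, error bars SD (n = 4), and each numbered point is a replicate. Ugt8a, Gal3st1, Fa2h, Cers2 and Elovl7 do not overlap between the groups, while Elovl1, Elovl5, Scd1 and Scd2 overlap widely.

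Of the 3 elongases, Elovl7 had separate groups, while Elovl1 and Elovl5 had groups that overlapped, and differences between the elongases were not tested. Elovl7 (ENSMUSG00000021696, chromosome 13, 108214404 to 108285683), an elongase of long chain fatty acids, had 19.4, 18.4, 15.7 and 16.3 CPM in libraries labelled Nsun5-KO, against 25.7, 22.4, 23.6 and 22.1 CPM in WT. Its lowest libraries were replicates 3 and 4 labelled Nsun5-KO, unlike those of the galactolipid enzymes. The log2 fold change was -0.43 (SE 0.10, 95% interval -0.64 to -0.21, edgeR adjusted p = 0.307), the smallest p among the members. Elovl1 (ENSMUSG00000006390, chromosome 4, 118428093 to 118432953), which elongates saturated very long chain fatty acids, had 8.93, 14.1, 11.1 and 13.2 CPM in libraries labelled Nsun5-KO, against 11.6, 9.75, 16.8 and 13.6 CPM in WT. The groups overlapped, and WT replicates alone spanned 9.75 to 16.8 CPM, so the estimate of -0.13 was wide (95% interval -0.53 to 0.27, edgeR adjusted p = 0.849). Elovl1 turned to 0.02 without WT replicate 3. Elovl5 (ENSMUSG00000032349, chromosome 9, 77917364 to 77984519), an elongase of polyunsaturated fatty acids that many cell types express, had 78.9, 79.5, 93.0 and 104 CPM in libraries labelled Nsun5-KO, against 100.4, 85.9, 86.8 and 88.5 CPM in WT. Replicate 4 labelled Nsun5-KO was the highest of all 8 libraries and replicate 1 the lowest, and the log2 fold change was -0.02 (95% interval -0.23 to 0.19). Elovl5 turned to 0.029 without replicate 1 labelled Nsun5-KO, to 0.022 without replicate 2 and to 0.027 without WT replicate 1.

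The desaturases overlapped between the groups. Scd2 (ENSMUSG00000025203, chromosome 19, 44293676 to 44306864), the main brain stearoyl-CoA desaturase, which makes monounsaturated fatty acids, had 1523, 1681, 1610 and 1837 CPM in libraries labelled Nsun5-KO, against 1855, 1656, 1601 and 1719 CPM in WT. Its log2 fold change was -0.04 (SE 0.08, 95% interval -0.20 to 0.13, edgeR adjusted p = 0.901). Its paralog Scd1 (ENSMUSG00000037071, chromosome 19, 44394451 to 44407709) had 203, 239, 216 and 276 CPM in libraries labelled Nsun5-KO, against 272, 229.5, 220.4 and 234 CPM in WT. The groups overlapped, and the log2 fold change of Scd1 was -0.03 (SE 0.10, 95% interval -0.25 to 0.18). Without replicate 1 labelled Nsun5-KO, Scd1 was at 0.028 and Scd2 at 0.00105, and without WT replicate 1 they were at 0.031 and 0.00073. Scd1 was also at 0.0023 without replicate 3 labelled Nsun5-KO. The log2 ratio of Scd1 to Scd2 also overlapped, at -2.84 ± 0.08 in the libraries labelled Nsun5-KO and -2.84 ± 0.05 in WT (SD, n = 4 each). The 2 paralogs are similar in sequence and the sources do not name the read counter, so reads may be split between them. Scd1 is abundant in adipocytes too, but the adipocyte markers Adipoq, Plin1, Cfd, Cidec and Lep had at most 0.57 CPM in sum in the libraries labelled Nsun5-KO and 0.18 CPM in WT.

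Aspa (ENSMUSG00000020774, chromosome 11, 73304992 to 73329596), the oligodendrocyte enzyme that splits N-acetylaspartate into acetate and aspartate, varied most among the libraries labelled Nsun5-KO. It had 13.96, 19.8, 13.0 and 21.6 CPM there, against 24.7, 23.98, 22.3 and 21.6 CPM in WT. Replicates 1 and 3 labelled Nsun5-KO were low, while replicate 4 was level with WT replicate 4. The log2 fold change was -0.43 (SE 0.15, 95% interval -0.77 to -0.10, edgeR adjusted p = 0.406). Nat8l, which makes N-acetylaspartate in neurons, had 569 ± 64.3 CPM in libraries labelled Nsun5-KO and 429 ± 97.7 CPM in WT (log2 fold change 0.41, SE 0.15, edgeR adjusted p = 0.413). Neither Aspa nor Nat8l was called by edgeR or separated the groups in CPM. In FPKM, Aspa in replicate 4 labelled Nsun5-KO (3.588) was just below WT replicate 4 (3.594).

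Sequence before the start of transcription was available for 7 of the 10 genes, in RefSeq on GRCm38.p6, the build also called mm10. The 250 bases upstream are shown for 4 genes that lay lower and for Elovl5, at -0.02, so that the start regions can be compared. Capitals mark matches on either strand to the GC box GGGCGG or the CCAAT box CCAAT (seen as CCGCCC and ATTGG on the opposite strand), and adjoining capitals can hold overlapping matches.
Ugt8a, chr3:125938653-125938902, minus strand: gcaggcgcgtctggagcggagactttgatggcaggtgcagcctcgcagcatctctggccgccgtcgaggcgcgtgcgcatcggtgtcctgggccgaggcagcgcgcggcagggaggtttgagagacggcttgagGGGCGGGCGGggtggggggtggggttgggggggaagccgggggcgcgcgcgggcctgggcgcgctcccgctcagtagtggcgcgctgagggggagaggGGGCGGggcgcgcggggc
Gal3st1, chr11:3983386-3983635, plus strand: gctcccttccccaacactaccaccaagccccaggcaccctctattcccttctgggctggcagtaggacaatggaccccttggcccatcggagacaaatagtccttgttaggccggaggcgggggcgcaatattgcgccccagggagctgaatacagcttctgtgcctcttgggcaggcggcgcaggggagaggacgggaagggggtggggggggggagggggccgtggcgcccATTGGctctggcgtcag
Elovl7, chr13:108214154-108214403, plus strand: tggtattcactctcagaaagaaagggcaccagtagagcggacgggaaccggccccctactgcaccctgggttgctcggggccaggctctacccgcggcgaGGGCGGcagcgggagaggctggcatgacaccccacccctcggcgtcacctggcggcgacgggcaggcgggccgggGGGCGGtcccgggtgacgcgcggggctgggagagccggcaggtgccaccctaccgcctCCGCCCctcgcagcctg
Aspa, chr11:73324638-73324887, minus strand: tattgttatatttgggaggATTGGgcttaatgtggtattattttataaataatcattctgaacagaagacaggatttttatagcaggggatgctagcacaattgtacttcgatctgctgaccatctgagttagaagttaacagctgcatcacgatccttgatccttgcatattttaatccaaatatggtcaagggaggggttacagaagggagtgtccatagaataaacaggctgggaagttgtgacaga
Elovl5, chr9:77917115-77917364, plus strand: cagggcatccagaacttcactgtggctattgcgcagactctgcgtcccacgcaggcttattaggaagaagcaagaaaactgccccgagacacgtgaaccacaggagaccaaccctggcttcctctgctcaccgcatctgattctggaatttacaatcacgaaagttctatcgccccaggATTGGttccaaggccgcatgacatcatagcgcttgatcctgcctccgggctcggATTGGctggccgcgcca
Ugt8a and Elovl7, with GC contents of 76.8% and 73.6% in this window, each held 3 GC boxes. Gal3st1 (65.6%) held a single CCAAT box, 17 bases before the start, and Elovl5 (55.6%) held 2 CCAAT boxes and no GC box. Of the members not printed, Elovl1, at -0.13, held 5 GC boxes, the most of the 7, with 1 CCAAT box and 72.0% GC. Cers2, at -0.29, held 2 GC boxes, 1 CCAAT box and 74.8% GC. GC boxes thus occurred both in genes that lay lower and in one whose interval includes 0. CCAAT boxes likewise occurred in genes of both kinds. Aspa stood apart with 38.8% GC and 2 CG dinucleotides, and it held 1 CCAAT box. Its RefSeq start lies 4959 bases inside the gene span of the deposited table. The RefSeq start used for Cers2 lies 399 bases inside its span, and all 250 bases of its window lie in annotated exons of Cers2 or 6330562C20Rik. The median GC content of 32851 RefSeq promoter windows of the same length was 52.4%. A GC box occurred in 32.7% and a CCAAT box in 33.8% of those windows. Neither the SOX core ACAAAG nor CTGGNAC, a motif of the oligodendrocyte factor Myrf, occurred in any of the 7 members' windows (16.5% and 16.1% of all windows hold them). Such matches describe the letters of this window only.

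Levels of the 10 genes were compared per length, in FPKM (fragments scaled to gene length and to library size). Scd2 was the highest, with 303 ± 23.8 FPKM in the libraries labelled Nsun5-KO and 310.2 ± 19.9 FPKM in WT (SD, n = 4 each), which is 80.6 times the WT level of Aspa, the lowest. Scd1 followed with 48.0 ± 6.53 and 49.0 ± 4.65 FPKM and Elovl5 with 25.1 ± 3.39 and 25.4 ± 1.89 FPKM in the libraries labelled Nsun5-KO and in WT. Next came Ugt8a (15.1 ± 1.88 against 19.5 ± 1.30 FPKM), Fa2h (12.8 ± 2.28 against 16.9 ± 0.91 FPKM) and Cers2 (12.4 ± 1.10 against 15.0 ± 1.06 FPKM). Gal3st1 (5.44 ± 0.60 against 6.81 ± 0.45 FPKM), Elovl7 (4.32 ± 0.43 against 5.79 ± 0.40 FPKM), Elovl1 (4.31 ± 0.83 against 4.71 ± 1.10 FPKM) and Aspa (2.85 ± 0.71 against 3.85 ± 0.24 FPKM) were the lowest. In both groups the ranges of Ugt8a and Fa2h, of Fa2h and Cers2, and of the neighbours from Gal3st1 down to Aspa overlapped. The order within each of these neighbouring pairs is therefore not resolved. Gal3st1 and Elovl7 had ranges above that of Aspa in both groups. Scd2 made up 69.3% to 70.9% of the summed FPKM of the 10 genes in the libraries labelled Nsun5-KO and 67.3% to 68.4% in WT.

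The enzymes were next set beside myelin protein genes in each library. As a scale for myelin RNA, Mbp, the myelin basic protein, had a log2 fold change of -0.40 (SE 0.11) and was not called by edgeR (adjusted p = 0.313). The mean log2 CPM of Mbp, Mobp, Cnp, Mog and Mag, relative to its WT mean, was -0.56, -0.11, -0.69 and -0.22 in replicates 1 to 4 labelled Nsun5-KO, against -0.10 to 0.11 in the WT libraries. Relative to WT in the same way, the mean of the 10 enzymes was -0.43, -0.14, -0.36 and -0.09 in those replicates, against -0.07 to 0.09 in the WT libraries. Replicates 1 and 3 were thus the lowest of the libraries labelled Nsun5-KO in both, and they were the lowest pair for 8 of the 10 enzymes, Elovl5 and Elovl7 being the exceptions. After subtraction of the myelin protein level, the groups overlapped for all 10 enzymes. For Elovl5, Scd1 and Scd2 they overlapped only through replicate 2 labelled Nsun5-KO, and the other replicates with that label lay above every WT library. The log2 ratio to the myelin protein genes differed between the libraries labelled Nsun5-KO and WT by 0.01 for Ugt8a, -0.02 for Fa2h, -0.04 for Elovl7, -0.07 for Aspa, 0.06 for Gal3st1 and 0.10 for Cers2. For Scd2 the ratio was 2.31 ± 0.21 in the libraries labelled Nsun5-KO and 1.96 ± 0.15 in WT (SD, n = 4 each), a difference of 0.35. The difference was 0.35 for Scd1, 0.36 for Elovl5 and 0.27 for Elovl1. These ratios were not tested.

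**Figure D3:**
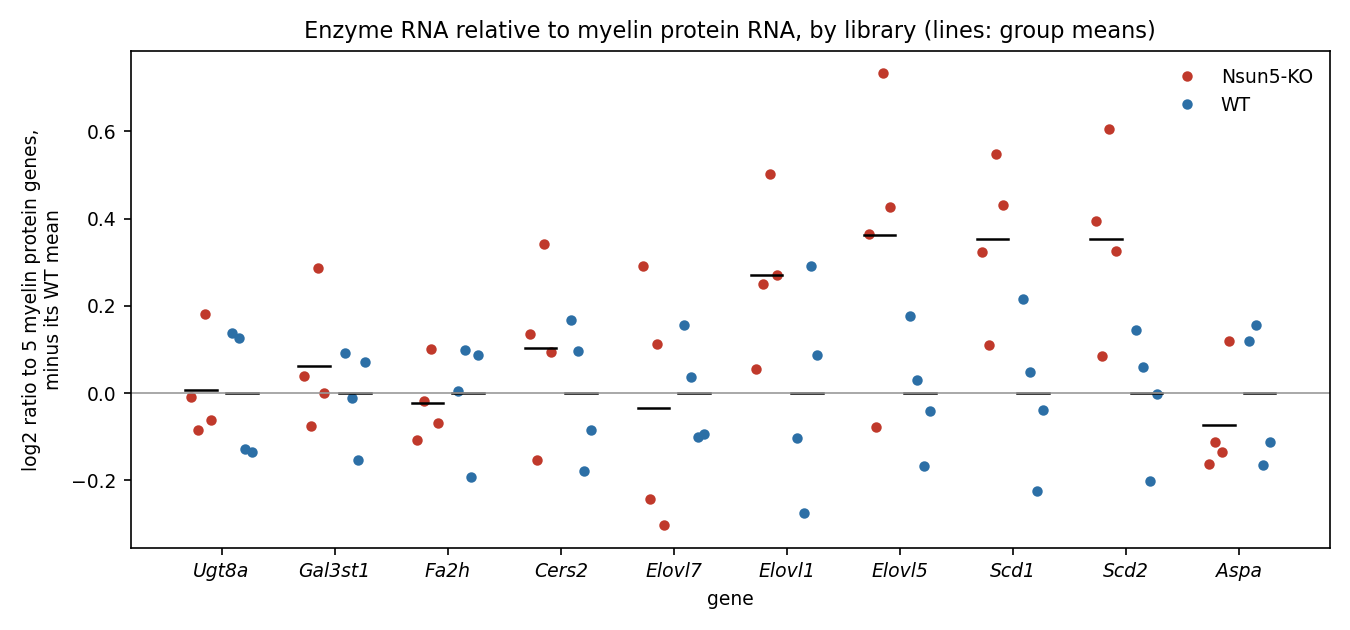
Log2 ratio of each enzyme to the mean of 5 myelin protein genes, minus its WT mean (y axis), for each library labelled Nsun5-KO (red) and WT (blue) by gene (x axis). Black lines are group means of 4 libraries. For Ugt8a, Fa2h, Elovl7 and Aspa the mean of the libraries labelled Nsun5-KO lies between -0.07 and 0.01 on this scale, and for Elovl5, Scd1 and Scd2 between 0.35 and 0.36.

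Regional neuron markers also differed among the libraries labelled Nsun5-KO. Thalamus and midbrain neuron markers, relative to their WT mean, were at -0.98, 0.53, -0.55 and -0.24 in replicates 1 to 4 labelled Nsun5-KO. The WT libraries were at -0.09 to 0.13. Over the 9 genes of that list the summed level was 119 to 360 CPM in libraries labelled Nsun5-KO and 242 to 290 CPM in WT, and 5 of 8 tested genes lay below 0. Hypothalamic markers had 4.61 to 10.4 CPM in libraries labelled Nsun5-KO and 7.77 to 122 CPM in WT, and all 6 tested lay below 0, as did all 7 ependymal and choroid plexus markers (59.2 to 1178 CPM in sum in the libraries labelled Nsun5-KO and 324 to 1157 CPM in WT). Relative to their WT mean, hypothalamic markers were at -1.43, -2.23, -2.36 and -2.20 in replicates 1 to 4 labelled Nsun5-KO. WT replicates 1 to 4 were at 0.38, 0.53, 0.47 and -1.37, so WT replicate 4 was near replicate 1 labelled Nsun5-KO. Ependymal and choroid plexus markers were at 0.02, -1.98, -1.23 and -2.15 in replicates 1 to 4 labelled Nsun5-KO, against -0.47 to 0.55 in WT. Among the libraries labelled Nsun5-KO, replicate 1 was thus the least low in both lists, whereas it was the lowest for thalamus and midbrain markers. The part of these regional markers in the enzyme result, and that of the neuron markers, was not tested. Without replicates 1 and 3 labelled Nsun5-KO, the log2 fold change was -0.24 for Ugt8a, -0.20 for Gal3st1, -0.21 for Fa2h, -0.16 for Aspa and -0.19 for Cers2, while Elovl7 was at -0.44. The median of the 10 enzymes was then -0.18, and 6 of 10 lay below 0 in place of 10.

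**Figure D4:**
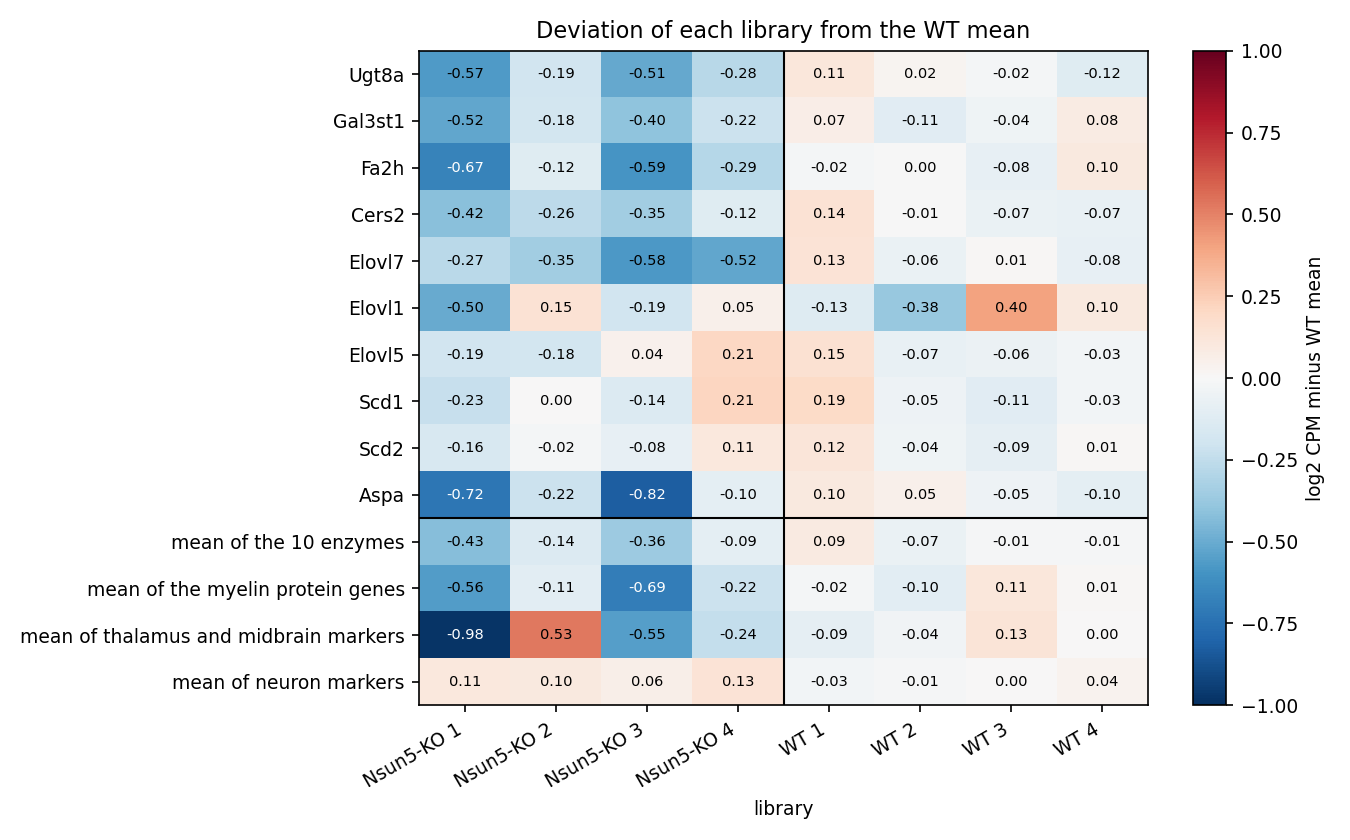
Log2 CPM minus the WT mean (colour and printed value) for each enzyme and for 4 averages (rows) in each library (columns, those labelled Nsun5-KO on the left). Replicates 1 and 3 labelled Nsun5-KO are the lowest for most enzymes, for the myelin protein genes (-0.56 and -0.69) and for thalamus and midbrain markers (-0.98 and -0.55). Hypothalamic markers and ependymal and choroid plexus markers, which are not drawn, were least low in replicate 1 of these libraries.

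Among each other, Scd1 and Scd2 had the most similar profiles over the 8 libraries, with a root-mean-square difference of 0.06 in mean-centred log2 CPM. Elovl5 and Scd2 (0.08), Ugt8a and Cers2 (0.09) and Gal3st1 and Cers2 (0.09) followed, and Elovl1 and Elovl7 were the least alike (0.34). Of 10147 other genes with a mean of at least 10 CPM, those closest to the average of the 10 enzymes were 1110059E24Rik (0.04), Reep3 (0.04), Spg20 (0.05), Pacs2 (0.05) and Gatm (0.06), against a median difference of 0.22. Gatm, an enzyme of creatine synthesis, had a log2 fold change of -0.31 (SE 0.08, edgeR adjusted p = 0.313), and the other 4 lay between -0.27 and -0.21. These genes were picked for their likeness, so their direction is no further evidence.

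Other genes of lipid metabolism had list medians between -0.08 and 0.02. Below 0 lay 13 of 29 genes of the sphingolipid and galactolipid list, 22 of 34 of the fatty acid list, 12 of 17 of the acetate and N-acetylaspartate list and 12 of 18 of the ether lipid and peroxisome list, beside 51.4% of all genes. In the sphingolipid and galactolipid list, edgeR called 0 of 29 tested genes, with a median log2 fold change of 0.02, and with 1 gene higher and 2 genes lower where the unadjusted p was below 0.05, a criterion that 5.3% of all genes passed as higher and 5.05% as lower. Gltp, a glycolipid transfer protein, was at -0.28 (SE 0.11), Smpd2, a neutral sphingomyelinase, at -0.32 (SE 0.14) and Gba2, a glucosylceramidase, at 0.17 (SE 0.08). In the list of fatty acid synthesis, elongation, desaturation and activation, 0 of 34 were called and the median was -0.03, with 2 genes higher and 3 genes lower by the same criterion. Acsl5, which activates long chain fatty acids, had 67.9 ± 6.64 CPM in libraries labelled Nsun5-KO and 52.2 ± 4.32 CPM in WT (SD, n = 4 each), with no overlap (log2 fold change 0.38, SE 0.09, edgeR adjusted p = 0.307). Fads2, a desaturase of polyunsaturated fatty acids, was at -0.26 (SE 0.08) and Acacb, an acetyl-CoA carboxylase, at -0.54 (SE 0.20).

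The acetate and N-acetylaspartate list had 0 of 17 called and a median of -0.08. By the same criterion 2 of the 17 were higher and 3 lower, beside the 5.3% and 5.05% of all genes. Folh1, which releases N-acetylaspartate from its glutamate-linked form, had 6.16 ± 0.67 CPM in libraries labelled Nsun5-KO and 8.48 ± 0.91 CPM in WT, without overlap (log2 fold change -0.46, SE 0.14, edgeR adjusted p = 0.337). Slc25a1, the mitochondrial citrate carrier, was at -0.30 (SE 0.10). In the ether lipid and peroxisome list, 0 of 18 were called and the median was -0.03, with 2 genes past that criterion, 1 in each direction. The lower one, Plekhb1, a membrane-associated protein that is no ether lipid enzyme, had 320.3 ± 48.0 CPM in libraries labelled Nsun5-KO and 412 ± 25.9 CPM in WT, with no overlap (log2 fold change -0.36, SE 0.10, edgeR adjusted p = 0.313). Abcd2, a peroxisomal importer of very long chain acyl-CoA, was at 0.37 (SE 0.14) and Acox3, a peroxisomal oxidase, at 0.16 (SE 0.09). None of the 4 list medians was as low as the -0.31 of the 10 enzymes, a difference that was not tested. Myelinating oligodendrocyte markers had a lower median than the enzymes, at -0.41, and all 9 of them lay below 0.

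**Figure D5:**
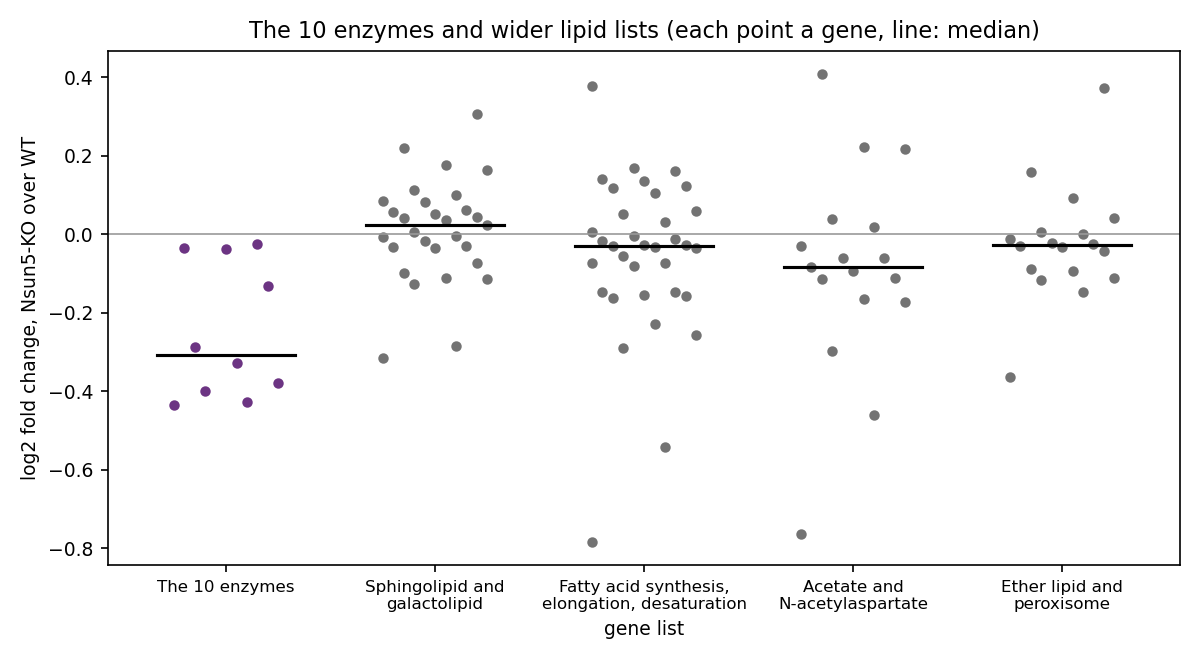
Log2 fold change (y axis), libraries labelled Nsun5-KO against WT, for each gene of the 10 enzymes and of 4 wider lipid lists (x axis), with black lines at the medians. The enzymes have a median of -0.31 and the wider lists of 0.02, -0.03, -0.08 and -0.03, and no gene shown was called by edgeR at an adjusted p below 0.05.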

How the data were processed

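RNA from brain was extracted with TRIzol and made into libraries with a NEBNext Ultra RNA kit, per the labels' protocols. Reads were aligned with HISAT2 2.0.5 to mm10, per the submitters' processing notes, and the counter was not named in these sources. The authors deposited whole-number counts of reads per gene. Their deposited FPKM equalled, within a fraction of 0.001, count over gene length over 1 constant for each library (0.9813 to 1.022 times its total), and they served for levels between genes. That the libraries come from separate mice is not stated, so p-values measure the spread between these libraries. No pair of libraries in a group agreed within sampling noise (chi-square per degree of freedom 7.22 to 20.4). Among WT libraries this value was 11.6 for replicates 1 and 2 and 7.22 for replicates 3 and 4, against 15.7 to 20.4 across these pairs. Mitochondrial genes held 7.27% and 7.68% of counts in WT replicates 1 and 2, and 5.52% to 6.23% in the other libraries.

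The test was edgeR 4.0.16 (R 4.3.3) on the counts, with filterByExpr (16062 genes kept), TMM scaling and the robust quasi-likelihood test of genotype, without covariates, Benjamini-Hochberg adjusted over all genes tested. CPM uses the same scaling, and log2 CPM a prior count of 2. Alternatives were DESeq2 1.42.0, limma 3.58.1 (voom with weights, and log2(FPKM + 1) or log2(FPKM + 0.1)), other scalings and filters, protein-coding genes alone, the replicate number as a block, and libraries left out. The pipeline was tested on simulated data. Named genes were the 10 members, Nsun5, Mbp, the 3 smallest p-values of each wider list and the 5 closest profiles. The remaining genes named with values were chosen after these were seen. Genes not reported here were left out of the myelin protein mean and the marker lists after the values had been seen. Members and lists were chosen with earlier results of these data known.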

Additional observations from a re-analysis of the deposited data

How the results depend on the processing

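Ugt8a, Gal3st1, Fa2h, Aspa, Cers2 and Elovl7 lay below 0 under all 21 alternatives run for every member. Adjusted p-values over these ranged from 0.0391 to 0.871 for Ugt8a and from 0.0395 to 0.825 for Elovl7. DESeq2 called 94 genes and 2 members (adjusted p = 0.0458 for Ugt8a and 0.0395 for Elovl7), and edgeR without the low-count filter called 68 genes and 1 member, Ugt8a. With single libraries left out, edgeR called 0 to 2 genes and 0 members, the members' median was -0.36 to -0.26, and 7 to 10 members lay below 0. DESeq2 with single libraries left out, an alternative chosen after seeing the data, called 0 to 2 members, with Ugt8a at -0.45 to -0.32. The 2 called without replicate 2 labelled Nsun5-KO included Ugt8a and did not include Elovl7. Elovl1 ranged from -0.25 to 0.020, Elovl5 from -0.11 to 0.029, Scd1 from -0.13 to 0.031 and Scd2 from -0.091 to 0.00105 over single libraries left out of edgeR. Without replicates 1 and 3 labelled Nsun5-KO, the median was -0.18, 6 members lay below 0, and Elovl1, Elovl5, Scd1 and Scd2 turned to 0.070, 0.023, 0.11 and 0.042. Without WT replicates 1 and 2, Elovl5 and Scd1 turned to 0.018 and 0.036. The cause was not tested. With upper quartile scaling and with library totals alone, the median of all genes was -0.029 and -0.030 in place of -0.005. The list medians shifted with it, to -0.052 and -0.054 for ether lipids and peroxisomes, to -0.053 and -0.054 for fatty acids, to -0.11 in both for acetate and N-acetylaspartate, and, with a change of sign, to -0.0004 and -0.0013 for sphingolipids. With the replicate number as a block, edgeR called 0 genes and the members' median was -0.31. Same-numbered libraries did not deviate together (correlations over genes -0.21 to 0.06). No pairing by number was seen, although low correlations cannot exclude it. Elovl1 and Gal3st1 had the fewest counts, 142 to 278 and 155 to 262 in a library.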

Other observations

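Myelinating oligodendrocyte markers had a summed level of 3346 to 4641 CPM in the libraries labelled Nsun5-KO and 5011 to 5607 CPM in WT, and all 9 lay below 0 (median log2 fold change -0.41), while 0 were called by edgeR. Precursor markers overlapped, with 146 to 173 CPM in the libraries labelled Nsun5-KO and 158 to 203 CPM in WT, and 5 of 6 lay below 0. Microglial markers had 300.0 to 318 and 310 to 331 CPM, endothelial markers 192 to 225 and 210 to 225 CPM, and blood markers 68.0 to 222 and 64.8 to 156 CPM, in the libraries labelled Nsun5-KO and in WT. Schwann cell markers had 33.5 to 45.9 CPM in the libraries labelled Nsun5-KO and 27.6 to 45.0 CPM in WT, nearly all of it Mlip. Pmp2 had no count in any library. Cerebellar markers had 160.4 to 188 CPM in the libraries labelled Nsun5-KO and 176 to 267 CPM in WT, most of it Calb1 (2568 to 3921 counts in a library). Gabra6, Pcp2 and Cbln3 had at most 49 counts in a library, and each was highest in WT replicate 2.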
